A study of Mus musculus with 12 samples.

Results

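The genes described here encode the cytoskeleton of the sensory axon. They are the neurofilament subunits Nefl, Nefm and Nefh, the related filament proteins Prph and Ina, the microtubule-associated protein Mtap1b, the stathmins Stmn2 and Stmn3, the growth-associated protein Gap43 and the neuronal tubulin Tubb3. They were taken by symbol, and all 10 were found among the 22609 genes of the count files. RNA was sequenced from 12 libraries of neuron-enriched fractions of mouse dorsal root ganglia (DRG, which serve the body) and trigeminal ganglia (TG, which serve the face), with 3 libraries for each sex and ganglion. The study asked how females and males differ in each ganglion, and the same libraries allow TG to be set against DRG. All 4 groups were naive wild-type mice of the strain given as C57BL in the labels and C57BL/6J in the study's methods, with no transgene and no treatment. The labels give an age of 3 to 4 months, while the study's methods give a younger range in weeks and state that females were in estrus and that lumbar DRG were taken. Whether a library pooled several animals, and whether TG and DRG libraries of one sex came from the same animals, is not stated in these sources, so p-values measure only the spread between these libraries, which may be technical.

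Neurofilaments are the heteropolymers that fill large myelinated axons and set their calibre. Nefl forms the core of the filament, while Nefm and Nefh carry long phosphorylated side arms. Nefh, known to histologists as NF200, is the usual stain for large myelinated sensory neurons, whereas peripherin (Prph) is the usual stain for small unmyelinated ones. Microtubules, the tracks of axonal transport, are built from tubulins such as the neuronal class III beta-tubulin (Tubb3), bound by Mtap1b and destabilised by stathmins, and Gap43 is a membrane protein of growing axon tips.

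Reads in genes ranged from 7511765 to 15396090 per library, and every library matched its labelled sex by Xist, Ddx3y and Kdm5d. A level is given in CPM, the reads of a gene scaled to a common library total with TMM factors, and 3 reads, taken as the smallest level a library can show, correspond to 0.207 to 0.357 CPM. Each group mean is given with its SD. The general neuronal markers Uchl1 and Snap25 averaged 1400 and 920 CPM over the 12 libraries, but satellite glia (Apoe, 2740 CPM, and Glul, 751 CPM) and Schwann cells (Pmp22, 1244 CPM) were also well represented, so the fractions were neuron-enriched rather than pure. In such bulk samples fewer cells of a type and less RNA per cell cannot be told apart. CPM measures RNA and not cell numbers. From flow cytometry of DRG fractions of reporter mice, the study estimated that most cells in them were sensory neurons. The libraries numbered 3 stood apart from those numbered 1 and 2 in many genes. The main edgeR comparisons and the correlations that rest on them are given below with and without them, an omission chosen after seeing the data. DESeq2, the test of a difference of sex effects between the ganglia and the search for nearest genes are given only with them.

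The 10 genes were abundant. Together they held 1.14% to 1.54% of the reads in genes, with a median of 1.41% in the 6 TG and 1.27% in the 6 DRG libraries, and the ranges of the ganglia overlapped. Mtap1b, which links microtubules to other parts of the cytoskeleton, alone took 35.9% to 66.4% of these reads. The neurofilament triplet (Nefl, Nefm and Nefh) held 0.126% to 0.246% of the reads in genes. Intervals from counting are narrow at this depth, for example 0.0743% to 0.0782% (95% Wilson) around the 0.0762% of Nefl in female DRG 1, and they cover counting error only.

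Per kilobase of exon, which allows genes to be compared, Tubb3 had the highest mean level over the 12 libraries (1084 ± 408 CPM per kb), followed by Stmn3 (884 ± 452), Stmn2 (602 ± 299) and Mtap1b (565 ± 121). Nefl (294 ± 85.4) and Prph (292 ± 76.5) stood level with each other, with Nefl above Prph in 7 of 12 libraries. Nefm (93.7 ± 17.6) and Nefh (72.5 ± 14.7) were lower, then Gap43 (39.3 ± 23.6), and Ina (1.72 ± 1.18) was lowest. Neighbours in this order had ranges that overlapped, except that every library had more Prph than any library had Nefm, and more Gap43 than any library had Ina. The first separation ends with the longest Nefm transcript as the length, when Nefm reaches 194 CPM per kb and the lowest Prph is 175. Several overlapping neighbours still kept their order within libraries, since Mtap1b exceeded Nefl and Nefm exceeded Nefh in 12 of 12. The level of Nefm depends on its gene model, whose exons sum to 5782 bp although its longest transcript has 3680 bp. Ina, alpha-internexin, is best known as a filament protein of central neurons. It had 0 to 144 reads per library, with a median of 56.5, and it was not detected in female DRG 1, where 3 reads would be 0.357 CPM.

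**Figure D1:**
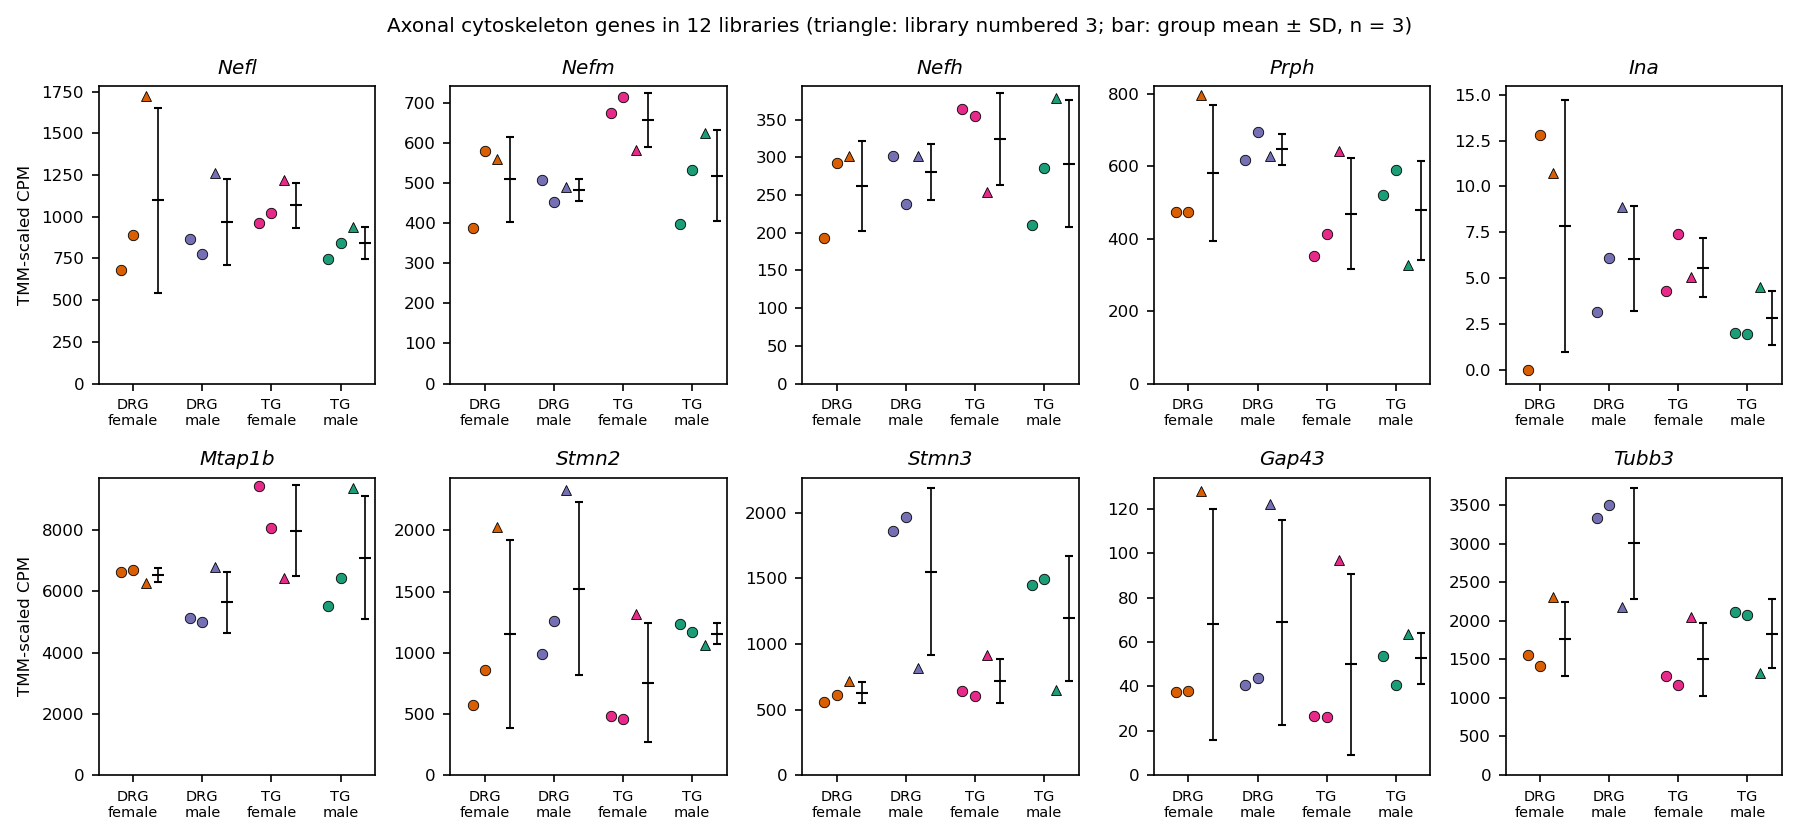
TMM-scaled CPM (vertical axis, from 0) of each of the 10 genes in the 4 groups (horizontal axis), 1 point per library, a triangle for the library numbered 3 and a bar for the group mean ± SD (n = 3). Gap43 and Nefl have their highest point in the triangle of every group, and within each ganglion Stmn3 and Tubb3 are highest in male libraries 1 and 2.

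TG was compared with DRG first. By edgeR's quasi-likelihood test none of the 10 reached an adjusted p under 0.05, against 0.964% of the 14829 genes tested, and the smallest adjusted p was 0.493. One gene, Tubb3, had an unadjusted p under 0.05, as 8.83% of all genes did. DESeq2 called 2.25% of all genes and none of these 10, with 2 below an unadjusted p of 0.05. In none did the TG and DRG libraries separate completely, which 1.36% of all genes did. The fitted log2 fold changes (TG over DRG) were positive for 3 genes and negative for 7, with a median of -0.25 beside -0.01 for all genes tested.

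The neurofilament subunits were close in level between the ganglia. Nefl spanned 749 to 1219 CPM (median 948) in TG and 681 to 1726 CPM (median 879) in DRG. Its log2 fold change was -0.12, with a 95% interval of -0.57 to 0.33, and it turned to 0.15 without the libraries numbered 3. TG libraries held 399 to 715 CPM of Nefm (median 604), and DRG libraries 387 to 580 CPM (median 498). The 3 female TG libraries and male TG 3 lay above every DRG library, and the lowest libraries, female DRG 1 and male TG 1, came from either ganglion. Nefm had a log2 fold change of 0.24 with an interval of -0.12 to 0.59. For Nefh the TG range was 210 to 378 CPM (median 320) and the DRG range 193 to 302 CPM (median 297). Female TG 1, female TG 2 and male TG 3 had more Nefh than any DRG library, while male TG 1 was among the lowest of all. The log2 fold change of Nefh was 0.18 with an interval of -0.22 to 0.58, and it turned to -0.03 after correction for GC content and gene length. Differences of more than 0.59 on the log2 scale lie outside the intervals of Nefm, Nefh and Nefl, but smaller ones could not be resolved.

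Prph and Ina, the other filament proteins, had lower means in TG, though neither passed the test. Prph spanned 326 to 644 CPM (median 467) in TG and 473 to 798 CPM (median 623) in DRG. Female TG 1, female TG 2 and male TG 3, which held the most Nefh, held less Prph than any DRG library. The log2 fold change was -0.37 with an interval of -0.81 to 0.06. Ina averaged 4.20 ± 2.05 CPM over the TG libraries and 6.96 ± 4.81 CPM over the DRG libraries, and its interval, from -2.27 to 0.67, was the widest of the 10.

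The microtubule genes did not share a direction. Tubb3 spanned 1167 to 2111 CPM (median 1683) in TG and 1414 to 3497 CPM (median 2246) in DRG. The highest 4 libraries were DRG libraries, and the lowest 3 were TG libraries. Its log2 fold change was -0.47 (SE 0.21, edgeR adjusted p = 0.493), and in fits without 1 library at a time it lay between -0.62 and -0.35. With a block for the library number it was -0.48 (edgeR adjusted p = 0.00615), a fit that assumes a pairing the labels do not give. Mtap1b went the other way, with 5527 to 9444 CPM (median 7258) in TG beside 4993 to 6805 CPM (median 6458) in DRG, and a log2 fold change of 0.31 with an interval of -0.06 to 0.68. Female TG 1, female TG 2 and male TG 3 were again apart, above every DRG library. Stmn2, which keeps growing microtubule ends labile, spanned 458 to 1315 CPM in TG beside 576 to 2329 CPM in DRG, with a log2 fold change of -0.51 and an interval of -1.17 to 0.15. Stmn3, a Golgi-associated relative of Stmn2, had almost the same medians in TG and DRG, 781 and 769 CPM, and a log2 fold change of -0.09. The TG libraries averaged 51.3 ± 26.9 CPM of Gap43 and the DRG libraries 68.4 ± 44.1 CPM, with an interval of -1.23 to 0.40.

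Leaving out the libraries numbered 3, with 8 libraries left, 5.47% of all genes were called, and 2 of the 10 passed. Tubb3 was lower in TG (log2 fold change -0.49, SE 0.07, edgeR adjusted p = 0.00246) and Mtap1b was higher (0.32, SE 0.07, adjusted p = 0.0214). The fold changes of both were close to those from 12 libraries, and the standard errors were smaller. Without female DRG 1 and female TG 3, the pair of libraries that lay farthest out on principal components 1 and 3, Stmn2 was the 1 of the 10 that passed (log2 fold change -1.01, edgeR adjusted p = 0.0429), as did 2.27% of all genes. That change was not stable across the libraries, since it was -0.16 without female DRG 3, -0.29 without male DRG 3, -0.84 without female TG 3 and -0.25 without the libraries numbered 3.

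**Figure D2:**
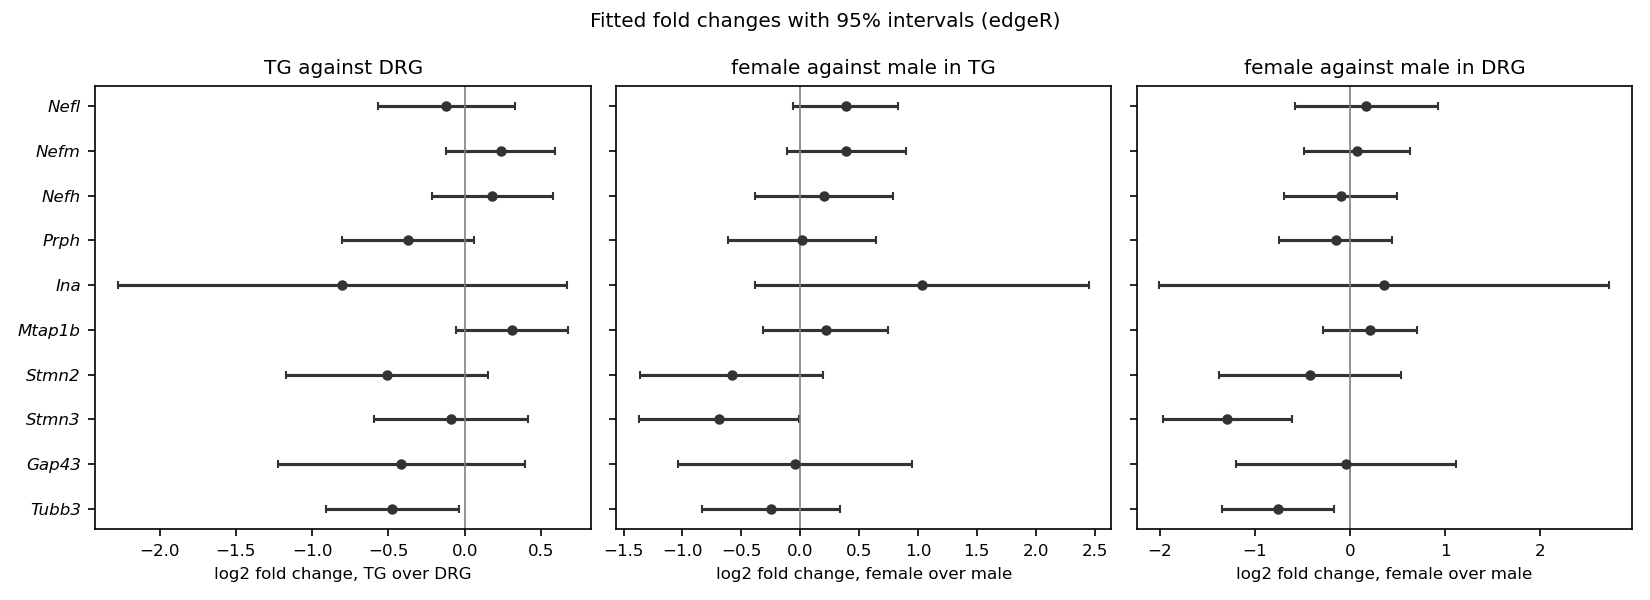
Fitted log2 fold changes (horizontal axis) of the 10 genes with 95% intervals from edgeR, for TG over DRG and for female over male in TG and in DRG. For TG over DRG the interval of Tubb3, from -0.91 to -0.04, is the only one of the 10 that excludes 0, and for female over male those of Stmn3 in both ganglia and of Tubb3 in DRG do.

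Ratios within a library do not depend on library scaling. They are given per kilobase as descriptions, with no test. No correction for GC content and gene length was made in them. For Nefh, TG over DRG, that correction turned the log2 fold change from 0.18 to -0.03. The Nefh to Prph ratio, the large-fibre stain over the small-fibre stain, spanned 0.185 to 0.541 (median 0.313) in TG and 0.159 to 0.288 (median 0.207) in DRG. Female TG 1 (0.481), female TG 2 (0.401) and male TG 3 (0.541) exceeded every DRG library, whereas female TG 3 (0.185), male TG 1 (0.189) and male TG 2 (0.226) lay within the DRG range. The TG libraries thus fell into a high and a low set, each with libraries of both sexes. Among those numbered 1 and 2, the female libraries were in the high set and the male ones in the low set. The library numbered 3 of each sex lay with the other sex. The high set had 47.7% to 49.1% of its reads outside annotated genes, and the low set 37.6% to 43.5%. Female DRG libraries, at 46.4% to 50.4%, had ratios of 0.176 to 0.288. The part of this share in the split was not tested. The side-arm subunits were also set against the core subunit. TG libraries had Nefh to Nefl ratios of 0.177 to 0.342 and DRG libraries of 0.148 to 0.294, and for Nefm to Nefl these were 0.280 to 0.410 and 0.190 to 0.382, or 0.439 to 0.645 and 0.298 to 0.600 per kilobase of the longest transcript. In female DRG, male DRG and female TG the library numbered 3 had the lowest of both ratios. The Prph to Nefl ratio was 0.631 to 1.27 in TG beside 0.838 to 1.63 in DRG. Ina reached at most 0.0150 of the Nefl level.

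**Figure D3:**
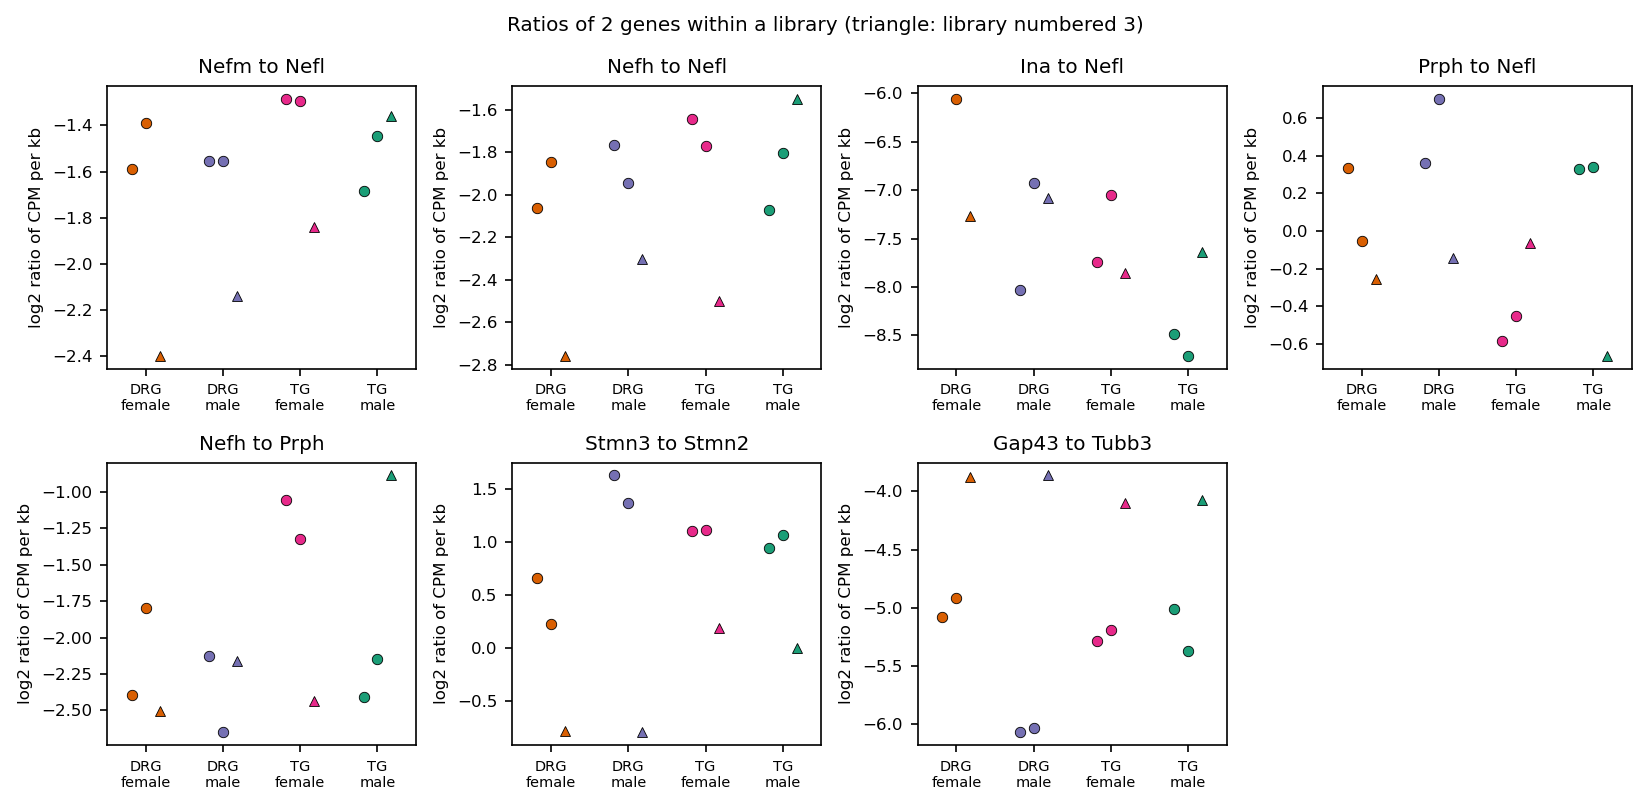
Log2 ratios of length-scaled levels of 2 genes within a library (vertical axes) in the 4 groups, 1 point per library and a triangle for the library numbered 3. Nefh to Prph is highest in female TG 1, female TG 2 and male TG 3, Stmn3 to Stmn2 is lowest and Gap43 to Tubb3 highest in the library numbered 3 of every group, and Ina is absent from the female DRG 1 ratio because it had 0 reads there.

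The sexes were compared in each ganglion separately. In TG none of the 10 genes passed edgeR's adjusted p of 0.05, which 0.0357% of 14009 genes did, and 1, Stmn3, had an unadjusted p under 0.05, beside 20.7% of all genes. Nefl was the 1 gene whose female and male libraries were fully separate, as were those of 23.8% of all genes. In DRG none passed the adjusted threshold, which 0.0358% of 13963 genes did, 2 (Stmn3 and Tubb3) had an unadjusted p under 0.05 beside 11.8% of all genes, and 1 (Stmn3) was fully separate beside 17.5% of all genes. DESeq2 called 6.36% of all genes in TG, with none of the 10, and 5.01% in DRG, with Stmn3 among them (adjusted p = 0.00972). The sex effect did not pass a test of a difference between the ganglia in any of the 10, in edgeR or DESeq2, with 0% of all genes called and 1.97% at an unadjusted p under 0.05, which none of the 10 reached.

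Stmn3 had the largest fitted sex difference of the 10 in DRG. Its levels in male DRG 1, 2 and 3 were 1865, 1972 and 820 CPM, and in female DRG 1, 2 and 3 they were 556, 612 and 719 CPM. Every male library was above every female one, but male DRG 3 was much nearer to the females than to the other males. The log2 fold change (female over male) was -1.29 (SE 0.31, edgeR adjusted p = 0.307). In male TG the levels were 1450, 1496 and 647 CPM and in female TG 638, 603 and 915 CPM, so that here male TG 3 lay among the females. The log2 fold change in TG was -0.69 (SE 0.31, edgeR adjusted p = 0.237). Correction for GC content and gene length brought these to -0.85 in DRG and -0.60 in TG, neither past the threshold.

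Tubb3 followed the same libraries. It had 3338, 3497 and 2180 CPM in male DRG against 1563, 1414 and 2312 CPM in female DRG. Male DRG 1 and 2 were above all others, while male DRG 3 and female DRG 3 were alike. The log2 fold change in DRG was -0.76 (SE 0.27, edgeR adjusted p = 0.328). In TG, Tubb3 had 2111, 2069 and 1318 CPM in males and 1281, 1167 and 2048 CPM in females, with a log2 fold change of -0.25 and an interval of -0.83 to 0.33. Here the library numbered 3 of each sex had the level of the other sex's libraries 1 and 2.

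The share of reads outside annotated genes moved against both Stmn3 and Tubb3. In DRG it was 46.4% to 50.4% for females and 38.2% to 42.6% for males, and in TG 43.5% to 49.1% for females and 37.6% to 47.9% for males, where male TG 3 was at 47.9% and male TG 1 and 2 at 40.8% and 37.6%. Over the 12 libraries, which share their groups and their scaling, the Pearson correlation of log2 CPM with this share was -0.95 for Stmn3, -0.81 for Tubb3, -0.59 for Prph, -0.53 for Stmn2 and 0.68 for Mtap1b. For Nefl, Nefm, Nefh, Ina and Gap43 it lay between -0.17 and 0.38. Without the libraries numbered 3 (8 libraries) it was stronger for Gap43 (-0.65), Stmn2 (-0.87) and Prph (-0.82), and -0.97 for Stmn3, -0.84 for Tubb3 and 0.70 for Mtap1b. The part of this share in the differences between the sexes was not tested.

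Across the 12 libraries some of the 10 genes moved together, described here by Pearson correlations of log2 CPM. Stmn3 correlated with Tubb3 (0.85) and Prph with Tubb3 (0.82), while Mtap1b ran against Tubb3 (-0.87), Prph (-0.80) and Stmn3 (-0.77). Nefm and Nefh moved together (0.89), and each was also positive with Mtap1b (0.69 and 0.67). Stmn2 went with Gap43 (0.89), and Gap43 also with Nefl (0.70). The core subunit Nefl was less closely tied to Nefm (0.47) and Nefh (0.45) over the 12 libraries, but over the 8 without the libraries numbered 3 the triplet moved together, with correlations of 0.98 for Nefl with each side-arm subunit and 0.97 between those. Over these 8 libraries Nefl ran against Gap43 (-0.74), the opposite of the sign over 12, while the others named here kept their sign (0.93 for Stmn3 with Tubb3, 0.92 for Prph with Tubb3, 0.90 for Stmn2 with Gap43, and -0.89, -0.93 and -0.81 for Mtap1b with Tubb3, Prph and Stmn3).

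The RefSeq promoter table (build GRCm38.p6, not the mm9 of the counts) held 5 of the 10 genes: Prph, Ina, Mtap1b under its current symbol Map1b, Stmn3 and Tubb3. The 250 bases before the annotated start are printed, 5′ to 3′ on the strand of the gene, for the genes that moved with or against Tubb3, in lower case with TATAA, the core of the TATA box at which the basal transcription machinery binds, in capitals.
Tubb3 promoter, chr8:123411303-123411552 (plus strand): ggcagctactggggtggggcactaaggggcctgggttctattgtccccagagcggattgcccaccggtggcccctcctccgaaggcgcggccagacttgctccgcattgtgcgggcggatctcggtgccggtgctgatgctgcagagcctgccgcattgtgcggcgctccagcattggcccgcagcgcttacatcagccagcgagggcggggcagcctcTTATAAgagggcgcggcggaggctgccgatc
Stmn3 promoter, chr2:181314501-181314750 (minus strand): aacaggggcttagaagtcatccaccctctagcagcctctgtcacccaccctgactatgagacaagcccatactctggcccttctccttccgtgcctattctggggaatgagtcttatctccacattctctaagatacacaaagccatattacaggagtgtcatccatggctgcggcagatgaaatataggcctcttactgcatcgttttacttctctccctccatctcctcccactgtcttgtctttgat
Prph promoter, chr15:99054924-99055173 (plus strand): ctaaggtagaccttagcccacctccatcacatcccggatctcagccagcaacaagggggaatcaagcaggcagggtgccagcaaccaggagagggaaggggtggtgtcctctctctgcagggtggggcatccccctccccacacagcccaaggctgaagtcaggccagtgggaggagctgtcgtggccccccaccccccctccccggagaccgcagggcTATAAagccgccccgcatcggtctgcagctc
Map1b promoter, chr13:99516603-99516852 (minus strand): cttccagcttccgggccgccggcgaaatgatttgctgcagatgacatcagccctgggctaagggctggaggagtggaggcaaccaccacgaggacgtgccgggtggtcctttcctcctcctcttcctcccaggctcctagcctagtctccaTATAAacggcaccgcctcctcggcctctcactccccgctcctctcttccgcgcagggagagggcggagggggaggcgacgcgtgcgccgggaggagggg
The letters TATAA on either strand were searched. Tubb3 held them 30 bases before its start, with an overlapping match on the opposite strand that adds the leading T in capitals. Prph held them 31 bases and Map1b 99 bases before the start, while Stmn3 and Ina held no match in this window. Of all 32851 promoters of the same length in the table, 16.0% held the motif on the strand of the gene and 22.8% on either strand. The 4 printed windows differ in base composition, with 68.0%, 48.8%, 65.2% and 66.4% GC for Tubb3, Stmn3, Prph and Map1b. CG dinucleotides numbered 21 for Tubb3, 19 for Map1b, 7 for Prph and 3 for Stmn3, against a median of 6 over all promoters.

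Gap43, whose level is known to climb when sensory axons are cut or dissociated neurons regrow, was the gene of the 10 that stood out most in the libraries numbered 3 of both DRG groups and of female TG. Female DRG 1, 2 and 3 had 37.6, 38.1 and 128 CPM, and male DRG 1, 2 and 3 had 40.6, 43.6 and 122 CPM. Female TG 1, 2 and 3 had 26.8, 26.1 and 97.1 CPM, and male TG 1, 2 and 3 had 53.5, 40.8 and 63.8 CPM. In each group the library numbered 3 was highest, at 1.35 to 3.67 times the mean of the other two. Nefl was also highest there in all 4 groups, by 1.17 to 2.20 times, and 8.36% of the 9775 genes with a mean of at least 10 CPM behaved so. Stmn2 was highest in the library numbered 3 of 3 groups, with 2024 CPM in female DRG 3 beside 576 and 859 CPM, 2329 CPM in male DRG 3 beside 989 and 1255 CPM, and 1315 CPM in female TG 3 beside 485 and 458 CPM. Male TG broke this order, at 1236, 1168 and 1061 CPM. The Stmn3 to Stmn2 ratio was lowest in the library numbered 3 of every group (0.583 and 0.579 in female and male DRG, 1.14 in female TG and 1.002 in male TG), and the Gap43 to Tubb3 ratio was highest there (0.0680, 0.0687, 0.0582 and 0.0594 in the same order).

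Satellite glia markers moved with these libraries in the opposite direction. Their summed level over 8 markers was 2742 CPM in female DRG 3 beside 6206 and 5874 CPM, 3159 CPM in male DRG 3 beside 6087 and 5961 CPM, 4128 CPM in female TG 3 beside 6322 and 7342 CPM, and 4305 CPM in male TG 3 beside 4759 and 5629 CPM. The summed level of 10 general neuronal markers was highest in the library numbered 3 of both DRG groups (6594 CPM in females, 5445 CPM in males) and of female TG (5182 CPM), and lowest in male TG 3 (4101 CPM). The part of cell composition in the levels of Gap43, Nefl and Stmn2 was not tested.

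The sex comparisons rested heavily on these libraries. Without them, with 4 libraries in each ganglion, 44.1% of all genes were called in TG and 10.1% in DRG, and 9 of the 10 genes were among the TG calls and 3 among the DRG calls. In TG, Nefl (log2 fold change 0.32), Nefm (0.59), Nefh (0.54) and Mtap1b (0.56) were higher in females, and Prph (-0.53), Stmn2 (-1.34), Stmn3 (-1.24), Gap43 (-0.83) and Tubb3 (-0.77) were lower, with edgeR adjusted p-values from 1.16e-05 to 0.0431. In DRG, Mtap1b was higher (0.43, adjusted p = 0.0131) and Stmn3 (-1.68, adjusted p = 0.00245) and Tubb3 (-1.16, adjusted p = 0.00291) were lower in females. Leaving out a single library was enough for some calls. Without female TG 3, Stmn2 (-1.29), Stmn3 (-0.95) and Gap43 (-0.99) passed in TG, where 23.6% of all genes did. Without male DRG 3, Stmn3 passed in DRG (-1.58, edgeR adjusted p = 0.0481), where 0.0486% of all genes did. With GC and length correction over all libraries the positive fold changes of Nefm and Nefh in TG became -0.15 and -0.55, and that of Mtap1b became -0.0049 in TG and -0.14 in DRG, so the direction of these 3 genes depended on that correction. Library totals alone, without TMM factors, shifted the median of all genes to 0.16 in TG and 0.19 in DRG, and values here are relative to the TMM scale.

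The wider axonal cytoskeleton was read from lists of related genes, TG against DRG, each count beside the 0.964% called over all genes. The lists were chosen with earlier results of these data known, so that share gives context and does not test them. Of 17 spectrins, ankyrins and other membrane skeleton genes, 2 were higher in TG and none lower. Spnb3, beta-III spectrin, a submembrane scaffold protein, had 138 ± 37.3 CPM in TG beside 53.6 ± 7.75 CPM in DRG, with no overlap between the ganglia (log2 fold change 1.36, SE 0.19, edgeR adjusted p = 0.000686). Ank1, an ankyrin that couples membrane proteins to spectrin, had 247 ± 83.3 and 130 ± 26.1 CPM (0.90, SE 0.20, adjusted p = 0.0307). None passed among 9 tested intermediate filament and linker genes (median log2 fold change 0.07), 15 tubulins (-0.07), 28 microtubule-associated proteins and other stathmins (-0.05), 19 growth cone and regeneration genes (-0.18) and 23 axonal transport motor genes (0.10). Without the libraries numbered 3, when 5.47% of all genes passed, Spnb3 (1.36) and Ank1 (1.02) still passed with 1 other gene of their list, and the other lists had 1 gene (intermediate filaments, higher in TG), 2 (tubulins, lower), 2 (microtubule-associated proteins, 1 in each direction), 2 (growth cone, lower) and 4 (motors, higher). Between the sexes none of these lists had a called gene in either ganglion with all libraries. Without the libraries numbered 3, 44.1% of all genes were called in TG and 10.1% in DRG. In female TG, 8 of 9 intermediate filament genes and 11 of 17 membrane skeleton genes were higher, and 0 lower. Higher and lower there were 2 and 7 of 15 tubulins, 12 and 8 of 28 microtubule-associated proteins, 9 and 4 of 18 growth cone genes, and 10 and 4 of 23 motors. In female DRG, 0 tubulins were higher and 7 lower, and each other list had 1 or 2 higher and 0 to 2 lower. At an unadjusted p under 0.05 over all libraries, which 11.8% of all genes reached in DRG and 20.7% in TG, 5 of 15 tubulins were lower and 0 higher in female DRG, and 3 were lower and 3 higher in female TG. In the same comparison the microtubule-associated proteins had 2 higher and 1 lower in DRG, and 9 higher and 3 lower in TG. Growth cone genes had 1 higher and 2 lower in DRG, and 4 higher and 1 lower in TG. Higher in DRG and in TG were 2 and 3 intermediate filament genes, 1 and 5 membrane skeleton genes and 0 and 4 motors, with 0 lower.

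Markers of the neuron classes that the NF200 and peripherin stains distinguish included genes called between the ganglia. Both marker lists were chosen with earlier results of these data known, so setting their counts beside all genes does not test the lists. Of 12 markers of large myelinated neurons, 3 were called higher and 0 lower in TG, beside 0.964% of all genes called. The summed level of the 12 was 3060 to 4397 CPM in TG beside 2374 to 2873 CPM in DRG, with no overlap. The 3 called genes were Scn8a, a nodal sodium channel (log2 fold change 1.10), Kcna1, a juxtaparanodal potassium channel (0.92), and Ret, a receptor for GDNF-family ligands that small neurons also carry (0.78), with edgeR adjusted p-values from 0.00255 to 0.0307. Kcna1 and Ret were the most abundant of that list, at 773 and 644 CPM, and so weighed most in its sum. Over all 12 markers, 8 fold changes were positive, with a median of 0.26 and a lowest value of -1.10. At an unadjusted p under 0.05, which 8.83% of all genes reached, 4 were higher and 1 lower. Of 12 markers of small unmyelinated neurons, 3 were lower and 0 higher in TG: the itch receptor Mrgprx1 (-1.16), Mrgprd of nonpeptidergic nociceptors (-0.78) and the capsaicin receptor Trpv1 (-0.76). The most abundant of that list, Calca (1546 CPM) and Scn10a (1107 CPM), did not pass. Its summed level was 3518 to 5157 CPM in TG beside 5032 to 7241 CPM in DRG, and only male TG 1 reached the DRG range. Over these 12 markers, 1 fold change was positive and the median was -0.52. At an unadjusted p under 0.05, 8 were lower and 0 higher. Without the libraries numbered 3, an omission chosen after seeing the data, 5.47% of all genes passed instead of 0.964%. These 6 genes then also passed in the same directions, which adds no independent support. The large myelinated sums were 3401 to 4397 CPM in TG beside 2560 to 2873 CPM in DRG. The large myelinated list had 4 higher and 1 lower, and the small unmyelinated list 1 higher and 6 lower. Beside these 6 genes the fold changes of Nefh (0.18) and Prph (-0.37) did not pass, and whether they differ from those of the markers was not tested.

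**Figure D4:**
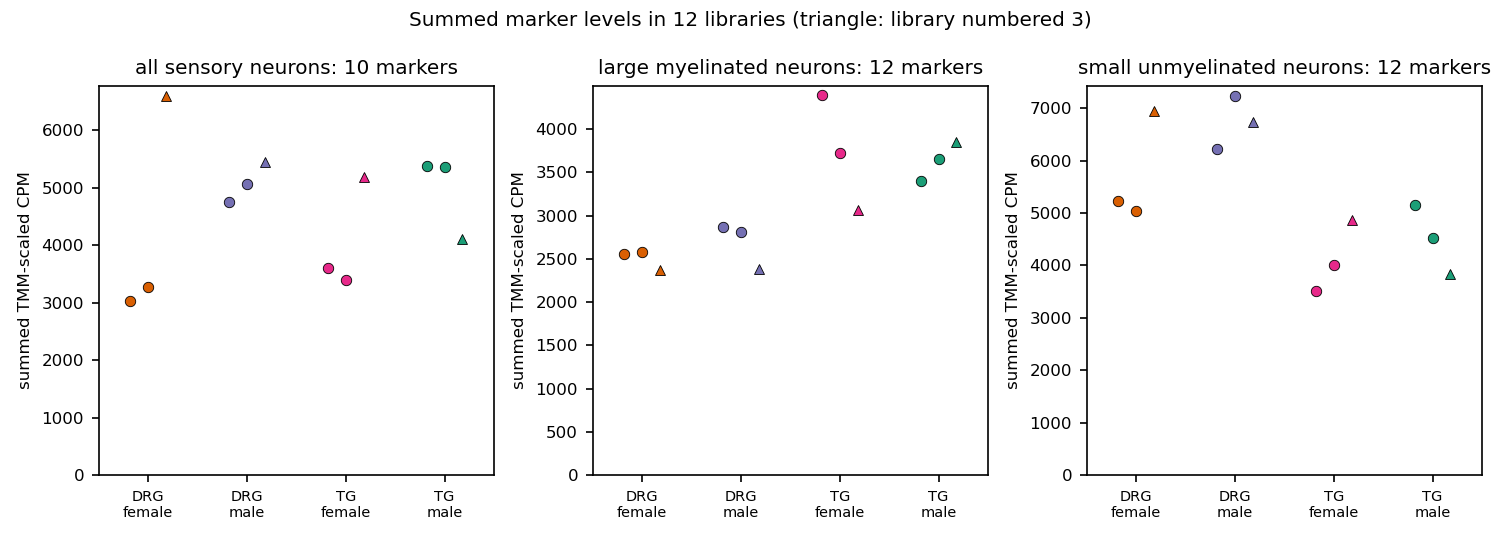
Summed TMM-scaled CPM (vertical axes, from 0) of 10 general, 12 large myelinated and 12 small unmyelinated sensory neuron markers in the 4 groups, 1 point per library and a triangle for the library numbered 3. Large myelinated sums are higher in all 6 TG libraries (3060 to 4397) than in all 6 DRG libraries (2374 to 2873).

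Markers of other cells did not pass between the ganglia with all libraries. No gene was called among 10 general neuronal, 8 satellite glia, 9 Schwann cell, 7 fibroblast, 7 endothelial and 9 macrophage markers, and their summed levels overlapped. Without the libraries numbered 3, when 5.47% of all genes passed, 1 satellite glia and 3 fibroblast markers were lower in TG. Neuronal markers summed to 3390 to 5380 CPM in TG beside 3036 to 6594 CPM in DRG, satellite glia markers to 4128 to 7342 and 2742 to 6206 CPM, and Schwann cell markers to 1960 to 3053 and 1937 to 2969 CPM. Fibroblast markers, led by Dcn (619 CPM) and Col1a2 (223 CPM), summed to 680 to 1714 CPM in TG beside 1069 to 2243 CPM in DRG. Endothelial markers, led by Flt1 (91.2 CPM) and Pecam1 (70.7 CPM), summed to 318 to 623 and 199 to 647 CPM, and macrophage markers were led by Mrc1 (63.4 CPM) and Csf1r (58.1 CPM), with sums of 105 to 493.1 and 133 to 364 CPM. Between the sexes no marker of any list passed in either ganglion with all libraries, although all 9 macrophage and all 7 fibroblast markers had positive fold changes (female over male) in both, with medians on the log2 scale of 1.04 and 0.66 in TG, and 0.79 and 0.52 in DRG. All 7 endothelial markers were positive in DRG too, with a median of 1.09. Without the libraries numbered 3, 44.1% of all genes were called in TG and 10.1% in DRG. In female TG, 7 of 9 macrophage, 5 of 7 fibroblast, 8 of 9 Schwann cell, 6 of 8 satellite glia and 2 of 7 endothelial markers were higher. There 1 Schwann cell, 1 satellite glia and 1 endothelial marker were lower. In female DRG, 5 of 7 endothelial, 4 of 7 fibroblast, 2 of 9 macrophage and 2 of 8 satellite glia markers were higher. There 1 satellite glia and 1 Schwann cell marker were lower. Of 10 general neuronal markers, 1 was higher and 5 lower in female TG, and 0 and 3 in female DRG. The defining macrophage marker Aif1 and the large-neuron marker Necab2 were at 0 in at least 1 library.

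The genes whose levels followed 3 of the 10 most closely were searched among 9766 others with a mean of at least 10 CPM, by the Pearson correlation of log2 CPM over the 12 libraries. Nefh was nearest to Fign (0.90), Setd1a (0.88) and Zmynd8 (0.86). Prph was nearest to Paqr5 (0.96), Pea15a (0.92) and Trpv2 (0.91), a channel of the same family as Trpv1. Gap43 was nearest to Scyl2 (0.98), Mgat4a (0.96) and Agtpbp1 (0.95), the last of which trims glutamates from tubulin tails. With so many genes searched over 12 libraries, those numbered 3 included, these are descriptions only.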

How the data were processed

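RNA was measured in 12 libraries in 4 groups of 3, with group and number from the sample titles. The authors isolated neurons on a Percoll density gradient, removed rRNA from 10 to 20 ng of total RNA, made dUTP stranded libraries read as single reads, aligned them to mm9 with TopHat2 and counted them with HTSeq. Versions, annotation and strand setting are not given in the sources used here. The authors deposited raw counts of reads for each gene symbol, not normalized, with 5 summary lines per file that were left out of library sizes. Reads outside genes were taken as a percent of reads in and outside genes. Multi-mapping reads were left uncounted, which makes genes with near-identical copies, such as tubulins, uncertain. Nefl and Nefm overlap on opposite strands in the annotation, and without strand their shared reads could not be told apart.

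The 10 genes, the related lists and the marker lists were chosen with earlier results of these data known. Named are the 10 genes, the called genes of each list (at most 4 by smallest p, TG against DRG), the 2 most abundant markers per list (1 is not reported here), and the 3 nearest genes to Nefh, Prph and Gap43. Those called in the marker lists were named as well after their values were seen, as were Aif1 and Necab2. Exon lengths came from the GENCODE annotation of mm9, which matched 95.9% of 22609 genes, 66 through another symbol.

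edgeR 4.0.16 in R 4.3.3 was used (filterByExpr, TMM factors, quasi-likelihood F-test, Benjamini-Hochberg over all genes tested) with 4 group means over 12 libraries for TG against DRG and the difference of sex effects, and with 6 libraries per ganglion for the sexes. Log2 fold changes are TG over DRG and female over male. Fits were tested on simulated counts. Alternatives were DESeq2 1.42.0, other size factors, no filter, a loess correction for GC content and length, a replicate block, and left-out libraries. Leaving out the libraries numbered 3, or female DRG 1 and female TG 3, was chosen after seeing the data. Correlations used log2(CPM + 0.5).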

Additional observations from a re-analysis of the deposited data

How the results depend on the processing

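The number of the 10 genes called was 0 in every comparison and changed as follows. TG against DRG gave 1 with a replicate block, 2 with the block and GC and length correction, 1 without female DRG 1 and female TG 3, and 2 without the libraries numbered 3. Female against male gave 9 in TG and 3 in DRG without the libraries numbered 3, and 1 in DRG with DESeq2. Leaving out 1 library gave 0 to 3 in TG (3 without female TG 3) and 0 to 1 in DRG (1 without male DRG 3).

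Over all genes, TG against DRG (143 called) gave 333 genes with DESeq2, 218 without a low-count filter, 562 with the block, 597 with the block and correction, 5 and 58 in female and male libraries only, 344 and 814 without the pair and without the libraries numbered 3, and 77 to 231 without 1 library (77 without male DRG 2, 231 without female TG 3). Female against male (5 in each ganglion) gave 753 in TG and 320 in DRG with DESeq2, 9 in TG without a filter, 6251 and 1418 without the libraries numbered 3, 5 to 3394 in TG without 1 library (3394 without female TG 3) and 5 to 10 in DRG (10 without female DRG 3). The summed share of the 10 genes was 0.761% in TG and 0.729% in DRG of reads in and outside genes. The causes were not tested.

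Several fold changes turned sign. For TG against DRG these were Nefl (0.15 without the libraries numbered 3), Nefh (-0.033 with the correction) and Stmn3 (0.20 in females only). In TG (female over male) the correction, without and with the block, gave -0.15 and -0.15 for Nefm, -0.55 and -0.54 for Nefh, -0.40 and -0.51 for Prph, -0.0049 and -0.0063 for Mtap1b, and 0.27 and 0.18 for Gap43. Prph was also -0.0031 with RLE factors and DESeq2 and -0.53 without the libraries numbered 3, and Gap43 was 0.054 without TMM factors. In DRG the correction, without and with the block, gave -0.28 and -0.35 for Nefm, -0.14 and -0.14 for Mtap1b, and 0.29 and 0.38 for Gap43. Ina was -0.58 with the block and -0.76 with block and correction, Nefl -0.032 without the libraries numbered 3, and without TMM factors Nefh was 0.067, Prph 0.0056 and Gap43 0.087. Without 1 library, TG against DRG ran from -0.24 to 0.12 for Nefl, -0.24 to 0.058 for Stmn3 and -0.87 to 0.0086 for Gap43. In TG, Prph ran from -0.32 to 0.19 and Gap43 from -0.99 to 0.24. In DRG, Nefl ran from -0.31 to 0.45, Nefm from -0.024 to 0.23, Nefh from -0.22 to 0.074, Ina from -0.18 to 0.94, Stmn2 from -1.10 to 0.069 and Gap43 from -0.88 to 0.72.

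The labels tie same-numbered libraries to no shared animal, batch or day, and not every pair correlated above 0.1, so pairing was not assumed. Deviations of same-numbered TG and DRG libraries correlated at 0.05 to 0.32, those of female and male TG at -0.14 to 0.01 and of female and male DRG at 0.03 to 0.22, and 8 of 12 libraries correlated best with their own number in the other ganglion and 6 of 12 in the other sex. With the block, Tubb3 passed for TG against DRG (-0.48, edgeR adjusted p = 0.00615), and with the correction added Prph passed too (-0.48, adjusted p = 0.0340). Depth limited Ina most of the 10 genes.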
